A study of Canis lupus familiaris with 16 samples.

Results

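TF (transferrin, ENSCAFG00000020110) is 1 gene of the 24580 in a canine RNAseq expression table that holds 13 meningiomas and 3 normal meninges. It was chosen by its difference between these groups, since the study lists it among the genes overexpressed in the meningiomas on the basis of these same libraries, so its values across the contrast are given as a description without a test. TF was above the controls in 13 of 13 meningioma libraries, from 2.66 to 21.9 times the control mean. The level was even across the controls and very uneven across the meningiomas, where libraries 6 and 11 held 45.2% of the FPKM summed over the 13 libraries.

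The meningiomas were surgical biopsies from client-owned dogs, with 6 tumours of grade I (5 transitional and 1 meningothelial) and 7 of grade II (atypical). The study had first left out other tumour samples, for low mapping, as outliers in principal components of expression, or after a changed diagnosis. The tumours kept were therefore already filtered in part on expression. Most were fixed in formalin and embedded in paraffin, and in a few the RNA came from a frozen portion. The tumour dogs were adults of many breeds, most of them spayed females, and some of the tumours were spinal. The controls were leptomeninges taken over the cerebral cortex from healthy research beagles after euthanasia and frozen. Tissue state, fixation, breed, site and the source of the dogs therefore cannot be told apart between the groups as a whole. The study names no experimental treatment, and the beagles were euthanised for an unrelated project, so what they had received is not known. Ages and genotypes of the controls are not among the labels. Libraries are numbered 0 to 12 within the meningiomas and 0 to 2 within the controls, and neither the table nor the labels pair these numbers with the tumours, so grade and fixation were not set against the TF level.

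Transferrin is an iron-binding glycoprotein of plasma and cerebrospinal fluid. It is made mainly by the liver and, within the nervous system, by oligodendrocytes and the choroid plexus. Iron-loaded transferrin binds the transferrin receptor on the cell surface and is taken up by endocytosis, after which the iron is released inside the cell and the protein returns to the surface. The transcript was measured here, and neither the protein nor iron was.

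Levels are given as the authors' FPKM. These are the fragments (sequenced cDNA pieces) assigned to a gene, divided by transcript length and by a library size scaled between libraries. The libraries held 2138741 to 7358925 fragments assigned to genes in the meningiomas, with a median of 4095984, and 7054614, 2269204 and 4467660 in control libraries 0, 1 and 2. TF had a whole number of fragments in 16 of 16 libraries. It had 410 to 3690 fragments in the meningiomas and 277, 111 and 222 in the controls, so the counting error of a single library was at most 4.94% of the level in the meningiomas and at most 9.49% in the controls. Intervals given for single libraries are exact 95% Poisson intervals from these fragments. They cover counting error only. Duplicates were not told apart by molecular identifiers, so this error may be larger than given and the intervals too narrow. On the first principal component of expression, the controls scored 61.8 to 73.9 and the meningiomas -53.5 to 14.8, the highest meningioma score being that of library 6. On component 3, meningioma libraries 2 and 12 scored -70.3 and -67.5, apart from the rest.

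TF in the controls lay in a narrow band. It was 19.3 FPKM in library 0 (interval 17.1 to 21.7), 22.0 FPKM in library 1 (18.1 to 26.4) and 23.3 FPKM in library 2 (20.4 to 26.6). Their intervals overlapped between neighbours, and the highest control was 1.21 times the lowest. The group mean was 21.5 ± 2.06 FPKM (SD, n = 3), a coefficient of variation of 9.56%.

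The meningiomas began well above this band. The lowest was library 3 with 57.2 FPKM (52.9 to 61.8), which was 2.45 times the highest control. This was the largest step between neighbours when all 16 libraries were put in order of TF level. All 13 tumours lay above that step, and they include tumours of both grades and the frozen tumours. Whether grade or fixation has a part in the TF level was not tested.

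The lowest tumour and the next 6 formed a plateau of 7 libraries under 75 FPKM. Library 12 had 58.7 FPKM, library 0 had 60.1, libraries 2 and 7 had 65.1 and 65.2, library 8 had 69.4 and library 9 had 69.5 FPKM. Within the plateau each library's interval overlapped that of its neighbour in the order, so the order of neighbours was not resolved at this depth. The ends were apart, with the interval of library 3 reaching up to 61.8 FPKM and that of library 9 starting at 63.6. The meningioma median, 69.5 FPKM, fell at the top of the plateau.

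From there the level climbed in separate steps. Library 10 had 92.8 FPKM (84.0 to 102.2), library 5 had 118.9, library 1 had 145.0 and library 4 had 164.2 FPKM. Library 11 had 324.9 FPKM (313.7 to 336.5) and library 6 had 470.9 FPKM (455.8 to 486.3). In this upper part no interval overlapped that of its neighbour, and of the 15 neighbouring pairs over all 16 libraries 8 overlapped. The step from library 4 to library 11 was 1.98 times, and the highest meningioma was 8.23 times the lowest.

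**Figure D1:**
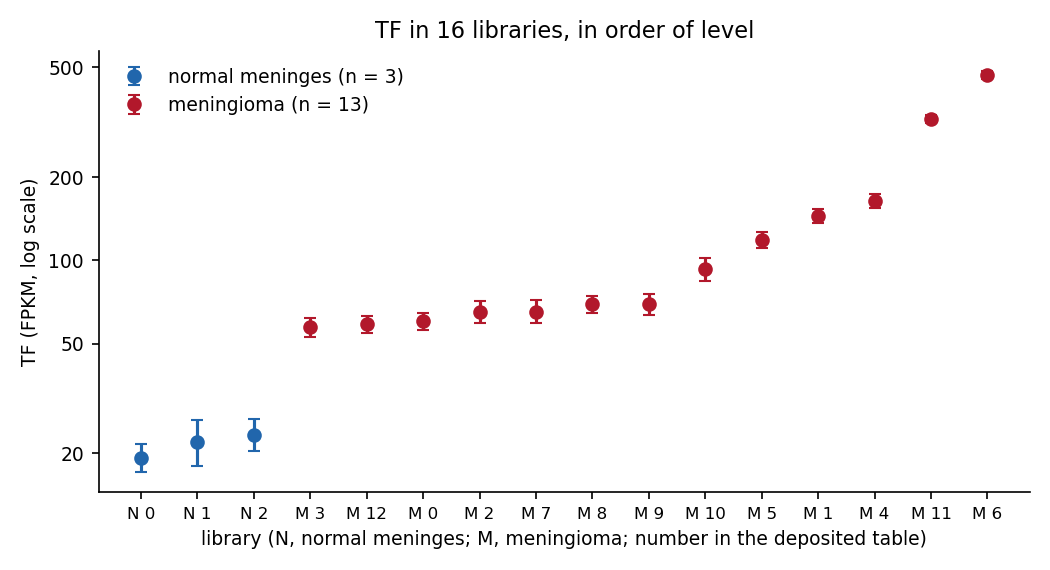
TF in FPKM (vertical axis, log scale) in each of the 16 libraries, ordered by level along the horizontal axis. Points are single libraries and bars are exact 95% Poisson intervals for counting error. The 3 controls sit between 19.3 and 23.3 FPKM, the 7 lowest meningiomas between 57.2 and 69.5, and libraries 11 and 6 at 324.9 and 470.9.

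The size of the group difference depended on how the tumours were averaged. The meningioma mean was 135.5 ± 125.1 FPKM (SD, n = 13), a coefficient of variation of 92.3%, and was 6.30 times the control mean. The ratio of the medians was 3.17 and that of the geometric means 4.84. Without libraries 6 and 11, left out after their values were seen, the mean was 87.8 ± 37.9 FPKM (SD, n = 11), 4.08 times the control mean, and the median was 69.4 FPKM. At least 2-fold above the control mean were 13 of 13 meningiomas, and at least 4-fold above it were 6. In a bulk sample, more cells that make TF and more TF per cell cannot be told apart.

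The position of TF within each transcriptome moved with it. In the controls TF was the 5111th, 4149th and 4272nd gene by FPKM, and 22.1% to 27.9% of the genes detected in a control were above it. In the meningiomas 0.436% to 10.6% of detected genes were above it, with a median rank of 949. TF was the 82nd gene in library 6 and the 171st in library 11, while in library 12 it was the 1706th, the lowest rank among the tumours.

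Spread was compared with that of other genes on log2 CPM, fragments relative to the library total without division by length, scaled between libraries by TMM (the trimmed mean of M values), with 0.5 fragments added. On this scale TF averaged 7.70 in the meningiomas and 5.43 in the controls, a difference of 2.28. Its SD over the meningiomas was 0.99, while the median SD of the 794 tested genes with a mean level within 0.5 of it was 0.45. TF varied more than 91.8% of those genes. Over the controls its SD was 0.14, beside a median of 0.23 for 2584 genes of like level, and 26.7% of them varied less than TF did. Leaving out the highest libraries of a gene must lower its SD, and without libraries 6 and 11 that of TF was 0.55, a value given as a description of the other 11 tumours.

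**Figure D2:**
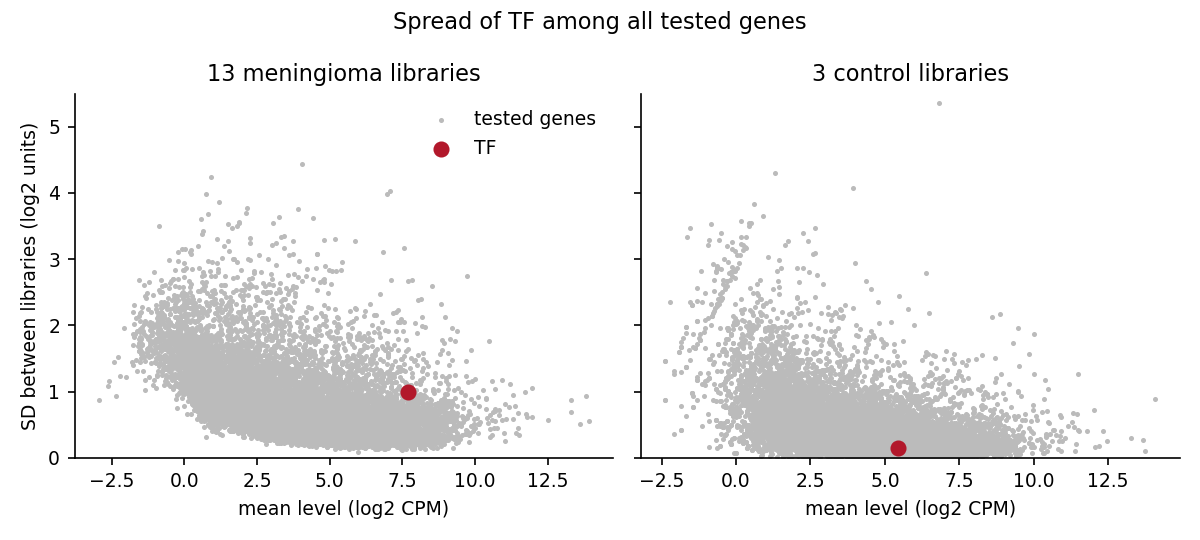
SD between libraries (vertical axis, log2 units) against mean level (horizontal axis, log2 CPM) for the 14345 tested genes in grey and TF in red, for meningiomas on the left and controls on the right. TF sits high in the cloud on the left, at an SD of 0.99, and low in it on the right, at 0.14.

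Genes entered the test when 3 or more libraries had 10 fragments or more. Over all 14345 of them, edgeR's quasi-likelihood test called 697 genes between meningiomas and controls at a Benjamini-Hochberg adjusted p under 0.05, which is 4.86%, and 188 of these, 1.31% of tested genes, were higher in the meningiomas. All 13 meningiomas were above all 3 controls in normalised counts for 309 genes, or 2.15%. TF was one of these 309. The study's 41 overexpressed identifiers, TF included, held 11 genes with such a separation, a count that the choice of the list on this contrast partly fixes and from which nothing is read. In that list ERMP1 and DMXL2 carry the same identifier and are counted here as a single gene.

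Among those 41 genes TF ranked higher by its lowest tumour than by its average. By edgeR's estimate its log2 fold change was 2.66, the 20th of the 41. TF lay between AMPD3 (an AMP deaminase) at 2.73 and DACT2 (a modulator of WNT and TGF-beta signalling) at 2.60. By the lowest meningioma library over the control mean it was the second. KLF5, a zinc finger transcription factor of epithelia, had a lowest ratio of 4.52, TF of 2.66, the desmosome-linked PERP of 2.36, the histidine-catabolism gene AMDHD1 of 2.24 and NOL4 of 2.21, and no other gene of the list reached 2. TF was the 9th of the 41 by mean FPKM in the meningiomas. Its SD over the controls was the 4th lowest, 0.14 against a list median of 0.55, and its SD over the meningiomas the 28th highest, 0.99 against 1.31. These ranks describe genes that were all selected on the same contrast.

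**Figure D3:**
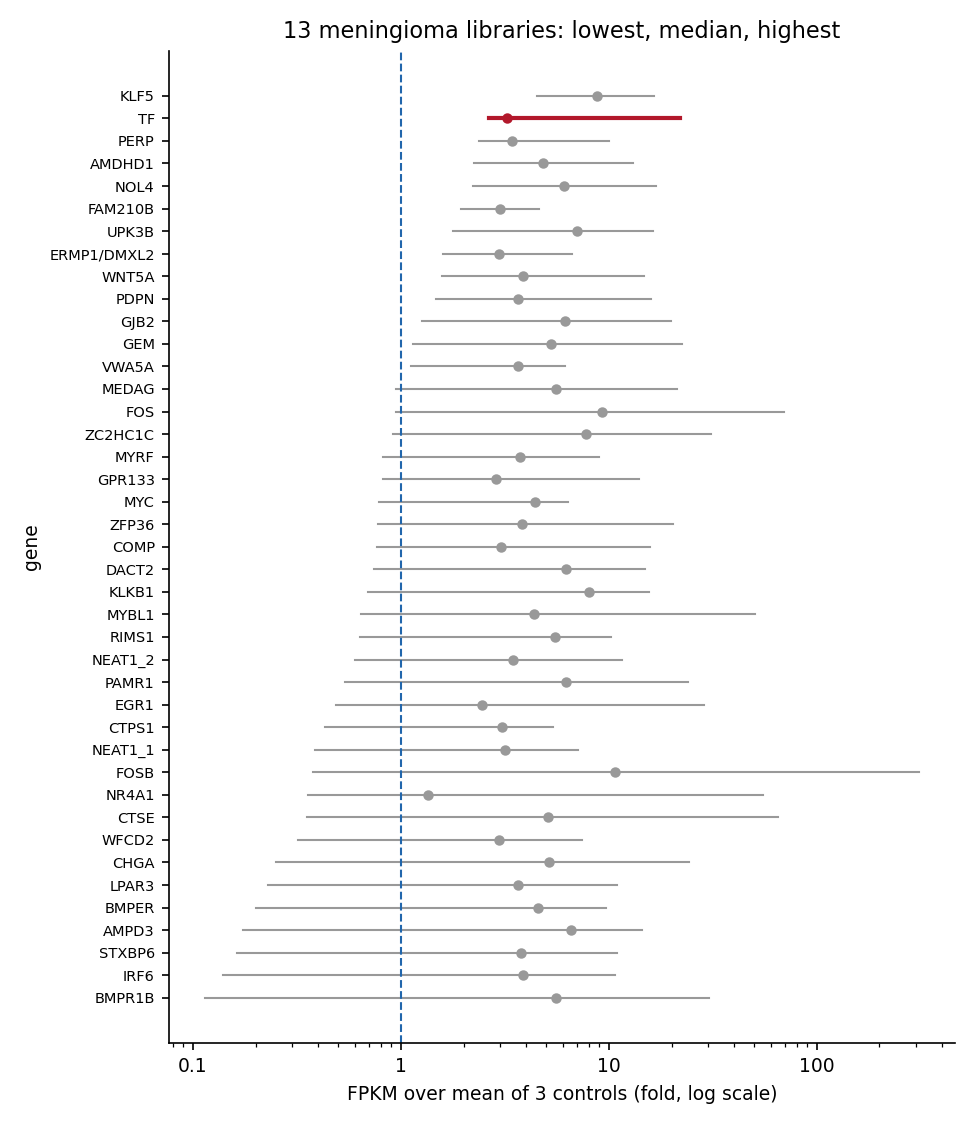
Range of FPKM over the 13 meningiomas divided by the mean of the 3 controls (horizontal axis, fold, log scale) for the 41 identifiers the study lists as overexpressed (vertical axis), ordered by the lowest library. ERMP1 and DMXL2 share an identifier. Lines run from the lowest to the highest library, points are medians, TF is red and the dashed line marks the control mean. The TF line starts at 2.66, and only that of KLF5, at 4.52, starts further to the right.

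The library with the highest TF was not the one in which the other listed genes were highest. In meningioma library 6, 24 of the other 40 overexpressed genes were above all 3 controls, while in the other 12 meningiomas this number was 28 to 38, with a median of 36. The choice of the list on these same libraries partly fixes these counts. The share of all tested genes above all 3 controls in a single library was not computed. Library 6 was the lowest of the 13 meningiomas for 12 of those 40 genes and the highest for 0, while library 12 was the lowest for 9 and library 2 for 8. MYC, the growth-driving transcription factor, the gap junction gene GJB2, the uroplakin gene UPK3B and BMPER, a secreted regulator of BMP signalling, were among the 12. AMPD3 had 1.64 FPKM there, below the lowest control at 5.45, and WFCD2 (as the study spells it) had 24.8 FPKM, below its lowest control at 62.0. TF, at 21.9 times the control mean, went the other way in the same library.

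Library 11, the second highest for TF, did not share this profile. In it 36 of the other 40 genes were above all controls, it was the lowest meningioma for 2 and the highest for 5, and AMPD3 had 92.1 FPKM. The high TF values of libraries 6 and 11 therefore stood beside different levels of the other listed genes. Of the 83 genes the study lists as underexpressed, 78 were below all controls in library 6 and 82 in library 11, against 80 to 83 in the 12 libraries other than 6. The choice of this list on the same libraries partly fixes these counts too, and the share of all tested genes was not computed. Library 6 was the highest meningioma for 23 of the 83 genes, and library 7, which had 65.2 FPKM of TF, was so for 21. PECAM1, an endothelial adhesion molecule, had 48.5 FPKM in library 6 and 14.7 in library 11, beside a meningioma median of 21.0 and controls of 141.2 to 188.6. Library 6 also had the most detected genes, 18578 against 15657 to 17752 in the other meningiomas and 16797 to 18782 in the controls. Whether admixed normal tissue has a part in these values was not tested.

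**Figure D4:**
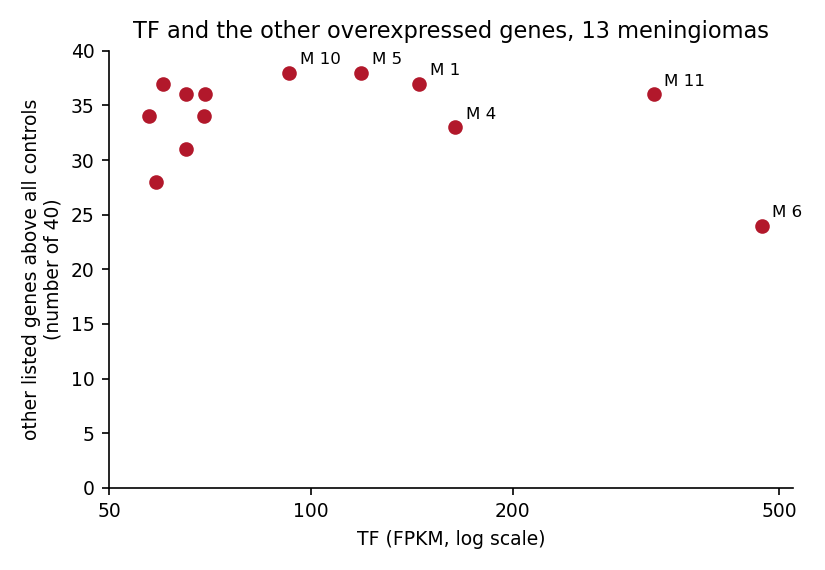
Number of the other 40 listed overexpressed genes above all 3 controls (vertical axis) against TF in FPKM (horizontal axis, log scale), with a point for each of the 13 meningiomas and labels on the libraries with TF above 80 FPKM. Library 6 is at the right with the highest TF and the lowest count, 24, while library 11 has 36. The choice of the list on these same libraries partly fixes the counts.

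The other listed genes were then set against TF over the 13 meningiomas, by Pearson's r of log2 TMM CPM. This is a likeness in which all genes share the total, fixation and cell content of each library, and it carries no test. Over the 14344 other tested genes r had a median of 0.01, with 5% of genes under -0.56 and 5% above 0.53. It was at least 0.8 for 25 genes and at most -0.8 for 26. Only genes that the study's lists pair with an identifier could be named.

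The named genes most like TF were 4 of the underexpressed list and 1 of the overexpressed. AMOT (angiomotin, which acts in endothelial migration and Hippo signalling) had r = 0.57 over 13 libraries, ECE1 (endothelin converting enzyme 1) 0.55, the immediate-early transcription factor gene FOSB 0.53, the spectrin gene SPTBN5 0.51 and the dystrophin-related DRP2 0.48. AMOT was 7.47 FPKM in library 11, its highest meningioma, and 3.99 in library 6, beside a median of 2.88 and controls of 10.6 to 17.5. ECE1 was 17.9 and 12.6 FPKM in these libraries beside a median of 10.6 and controls of 35.1 to 59.6. Without libraries 6 and 11 the likeness was 0.45 for AMOT, 0.52 for ECE1, 0.37 for FOSB, -0.05 for SPTBN5 and 0.43 for DRP2, so that of SPTBN5 rested on those libraries. SPTBN5 was 3.71 FPKM in library 6 and 0.35 in library 11, beside a low meningioma median of 0.28. DRP2 was low as well, with a meningioma median of 1.78 FPKM. Many genes that could not be named here were more like TF, and AMOT was the 545th of all other tested genes in order of r, with TF itself left out.

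The named genes least like TF were all of the overexpressed list. CTPS1 (CTP synthase 1, of pyrimidine nucleotide synthesis) had r = -0.72, MYBL1 (a MYB family transcription factor) -0.68 and WFCD2 -0.61. CTPS1 was 9.19 FPKM in library 6, its lowest meningioma and below the controls at 20.1 to 23.2, whereas in library 11 it was 67.1 FPKM, near its median of 65.2. MYBL1 was 3.52 FPKM in library 6 and 4.62 in library 11, beside a median of 16.2 and a range of 2.40 to 188.4 over the meningiomas. Without these libraries r was -0.68 for CTPS1 and -0.65 for MYBL1, and -0.21 for WFCD2. The other 40 overexpressed genes had a median r of -0.20 with TF and 14 of them were above 0, while the 83 underexpressed genes had a median of 0.07 with 53 above 0. Over all tested genes 51.2% were above 0.

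**Figure D5:**
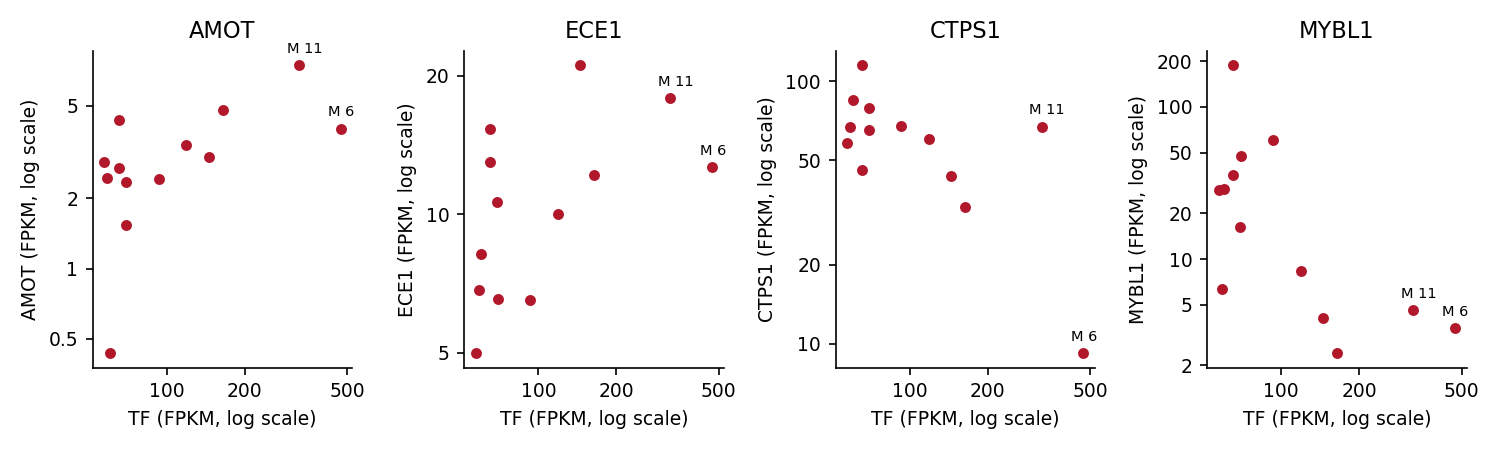
FPKM of AMOT, ECE1, CTPS1 and MYBL1 (vertical axes, log scale) against TF in FPKM (horizontal axes, log scale) in the 13 meningiomas, with a point for each library and libraries 6 and 11 labelled. AMOT and ECE1 tend to be higher where TF is higher, and CTPS1 and MYBL1 lower, with CTPS1 at 9.19 FPKM in library 6 and 67.1 in library 11.

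The table names genes by identifier alone, so of a list of 60 genes of iron uptake, storage, export and regulation and of heme handling, 1 other than TF could be found. The transferrin receptor, the ferritins and ferroportin were not analysed here. The gene found was BMPER, which modulates BMP signalling and so touches the regulation of hepcidin, the hormone of iron balance. It could be found only because the study lists it as overexpressed in these same libraries, so its test is not independent evidence of direction and says nothing of the rest of the list. It had 1.18 FPKM in library 6, its lowest meningioma and below the lowest control at 3.83, and 12.2 FPKM in library 11, beside a meningioma median of 26.8. Its log2 fold change was 2.08 (standard error 0.80), which edgeR's quasi-likelihood test did not call after Benjamini-Hochberg adjustment (adjusted p = 0.151, unadjusted p = 0.0188). DESeq2, which called 9.53% of the genes it tested, called BMPER. Without meningioma library 6, edgeR called it too (adjusted p = 0.0467).

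Markers of the cell types known for TF, and of other cells that meninges hold, were likewise read where they had an identifier. That was so for 15 of 94 markers, all of them on the study's own lists, which were chosen on this contrast, so their directions and calls carry no independent evidence. Of these 1 was called higher in the meningiomas by edgeR and 12 lower, where 1.31% and 3.55% of all tested genes were called. The single oligodendrocyte marker found, MYRF, had 14.4 to 156.8 CPM in the meningiomas and 10.4 to 27.5 in the controls and was not called (log2 fold change 2.08, standard error 0.60, edgeR adjusted p = 0.0540). The single liver and plasma marker, KLKB1 (plasma prekallikrein), had 19.7 to 444.2 against 17.1 to 40.7 and was not called either (2.73, standard error 0.90, edgeR adjusted p = 0.0912). Neither was highest in library 6 or 11. MYRF was 7.56 FPKM in library 6 and 21.9 in library 11, beside a meningioma median of 19.3. KLKB1 was 10.7 FPKM in library 6 and 124.1 in library 11, the latter its median.

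The arachnoid marker PDPN (podoplanin) was the marker called higher, with a log2 fold change of 2.45 (standard error 0.66, edgeR adjusted p = 0.0398). It had 131.9 FPKM in library 6 and 47.5 in library 11, beside a median of 110.1. The summed level of the 7 endothelial markers found was 84.1 to 374.1 CPM in the meningiomas and 1010 to 1695 in the controls. That of the 3 mural cell markers was 70.7 to 207.9 against 544.9 to 1343, and that of the 2 fibroblast markers 36.8 to 143.7 against 611.5 to 642.6. These 12 genes were known by name only from the study's underexpressed list, which fixes their direction. The part of cell makeup in the TF level was not tested. Markers of choroid plexus, astrocytes, neurons, macrophages and erythroid cells were not analysed here.

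The level of TF over the meningiomas was last compared with 5 other measures by correlation, with permutation tests of 100000 resamples adjusted over the 5. With total fragments per library r was -0.29 (permutation p = 0.334, adjusted 0.726) and rho -0.45 (permutation p = 0.129, adjusted 0.323), and r without libraries 0 and 10 was -0.35. Because libraries 2 and 12 form a cluster on component 3, that relation was computed in the other 11 meningiomas, where r was 0.65 (permutation p = 0.0304, adjusted 0.152) and rho 0.71 (permutation p = 0.0187, adjusted 0.0933). It was 0.56 without libraries 3 and 9 (permutation p = 0.115). The relation had the largest r of the 5 and did not pass the adjustment.

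With the cell type markers the relations were weaker. With MYRF r was -0.17 (permutation p = 0.581, adjusted 0.726) and rho -0.03 (permutation p = 0.935, adjusted 0.935), and r was -0.01 without libraries 2 and 6. With PDPN r was -0.22 (permutation p = 0.478, adjusted 0.726) and rho -0.13 (permutation p = 0.672, adjusted 0.888), and r was -0.32 without libraries 2 and 3. With PECAM1 r was -0.03 (permutation p = 0.931, adjusted 0.931) and rho -0.12 (permutation p = 0.710, adjusted 0.888), and r was -0.44 without libraries 6 and 7. None of the 5 relations had an adjusted p under 0.05, and with 13 libraries a moderate relation could have been missed.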

How the data were processed

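RNAseq libraries were made from total RNA after ribosomal RNA subtraction, with a strand-specific kit. Per the study's methods and processing notes, the authors trimmed reads (cutadapt 1.8), mapped them to the canFam3 dog genome with TopHat2 2.0.13 and quantified Ensembl genes with Cuffdiff 2.2.1. The deposited table gives, per gene and library, estimated counts of fragments, the authors' scaled fragments (a signal adjusted for library size) and FPKM. Of 393280 fragment values 1341, in 155 genes, were not whole, and all were rounded. Libraries were grouped by the condition in the table, and each is a separate tumour or dog. Genes were tested with edgeR 4.0.16 (TMM, quasi-likelihood, group only, R 4.3.3). The standard errors given are the absolute log2 fold change divided by the square root of the F statistic of this test. DESeq2 1.42.0 and limma 3.58.1 were alternatives, and edgeR and DESeq2 were tested on simulated counts. Permutations used scipy 1.17.1. Symbols came from the study's 124 listed identifiers. By rule, genes named were TF, iron genes and markers with an identifier, the 5 listed genes most and 3 least like TF, and AMPD3 and DACT2 beside it in fold change. KLF5, PERP, AMDHD1, NOL4, MYC, GJB2 and UPK3B were named after their values were seen. TF and all lists were chosen with earlier results of these data known. No position, sequence or neighbouring gene of TF is given, since the RefSeq table used (UU_Cfam_GSD_1.0) pairs no gene with this symbol.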

Additional observations from a re-analysis of the deposited data

How the results depend on the processing

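The log2 difference of TF between meningiomas and controls, 2.28, was 2.16 to 2.28 under the authors' FPKM, their scaled fragments, DESeq2 size factors, upper-quartile scaling and no scaling, 2.66 as the ratio of arithmetic means, 2.10 to 2.35 when each library was left out, and 1.93 without libraries 6 and 11 (chosen after the data were seen). The SD of TF over the meningiomas, 0.99, was 0.99 to 1.05 under these scalings. It was 0.78 to 1.03 with a library left out and 0.55 without libraries 6 and 11. For TF the authors' FPKM and scaled fragments were proportional, so they gave the same values and are not separate checks. The 697 genes called by edgeR became 1364 with DESeq2 and 169 to 931 with a library left out, the lowest being 245, 350 and 169 without control 0, 1 or 2, and 501 to 890 under the other alternatives. Of the iron and heme list 0 genes were called by edgeR, 1 by DESeq2 and 0 to 1 with a library left out, the 1 being BMPER without meningioma library 6. Of the 15 markers found 13 were called, 15 with DESeq2 and 11 to 15 with a library left out. With a library left out, r of TF ranged from -0.41 to 0.14 for MYRF (positive without library 6), from -0.43 to 0.13 for PECAM1 (positive without library 1, 2, 3, 7 or 11), from -0.39 to -0.01 for PDPN, from -0.41 to -0.21 for total fragments and from 0.58 to 0.73 for component 3. The causes of these shifts were not tested. No paired analysis was possible because the library numbers of meningiomas and controls come from different dogs.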

Other observations

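Over the 13 meningiomas the genes most and least like TF among all tested genes are not on the study's lists, so no symbol could be given for them here. ENSCAFG00000013924 had r = 0.88 (rho 0.81, and r = 0.69 without libraries 6 and 11), with 88.2 FPKM in library 6 and 30.2 in library 11 beside a meningioma median of 14.7 and a control mean of 19.3. ENSCAFG00000013489 had r = -0.92 (rho -0.83, and r = -0.84 without libraries 6 and 11), with 13.0 FPKM in library 6 and 10.96 in library 11 beside a median of 30.7 and a control mean of 15.0. Both were picked as the extremes of 14344 genes, so the size of r is given as a value only.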
